A study of Mus musculus with 20 samples.

Results

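Aminoacyl-tRNA synthetases are the enzymes that load each amino acid onto its tRNA before the ribosome can use it. The genes described here were found by a rule on symbols that uses no measured value, as the rows of both count tables named by an amino acid letter followed by ars, with an ending of 2 for the mitochondrial form, together with the forms Eprs, Farsa, Farsb and Tarsl2. The rule found 36 genes of 50559, of which 20 encode cytosolic and 16 mitochondrial enzymes. The tables keep older symbols for most cytosolic members, so that Aars, Vars and Tarsl2 are the genes now called Aars1, Vars1 and Tars3. The rule matched no gene for methionine, and a pair of rows whose names read as French spreadsheet dates was left outside the members.

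The cytosolic enzymes feed the ribosomes that translate nuclear messengers, and the mitochondrial enzymes, which are also encoded in the nucleus, feed the ribosomes inside the organelle. Gars and Kars each provide the glycyl or lysyl enzyme of both compartments, and several cytosolic enzymes are held together in a multi-synthetase complex on the scaffold proteins Aimp1, Aimp2 and Eef1e1. MYC is known for raising genes of protein synthesis, and ATF4, the transcription factor of the amino acid response, is known to drive several cytosolic synthetase genes.

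The data were bulk RNA-seq of 20 libraries in 4 groups of 5, named Aldafermin+MYC, FGF19+MYC and sgTrp53+MYC tumors and healthy non treated livers. All samples carry the C57Bl6J wild-type genotype in the labels, and the study's methods give female mice 6 to 8 weeks old at injection. Plasmids reached hepatocytes by hydrodynamic injection into the tail vein, and every tumor group received MYC under the EF1a promoter with the Sleeping Beauty transposase. To this were added human FGF19, a gut hormone that restrains bile acid synthesis, or Aldafermin, its engineered analog, or a CRISPR plasmid with a guide against Trp53. Each tumor library came from 1 frozen tumor of a wild-type host, so it also holds host cells that carry no plasmid, and in such bulk RNA fewer cells of a type and less RNA per cell cannot be told apart. The treatment field of the sgTrp53+MYC samples reads None and their group was taken from the titles. The labels call the livers non treated, while the study describes its control liver as injected in the same way with an RFP plasmid, so whether these livers were injected is not settled here.

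Reads on genes ran from 18004977 to 66354724 per library, with medians of 22749906 in the FGF19+MYC group, 34227256 in Aldafermin+MYC tumors, 60721954 in sgTrp53+MYC tumors and 33252026 in livers. The sgTrp53+MYC libraries stand alone in a second table. Of their reads that met a gene, 14.4% to 19.8% were set aside as ambiguous, against 6.37% to 10.9% in the other libraries. Reads that did not align made up 5.34% to 6.82% of the sgTrp53+MYC libraries and 15.3% to 34.0% of the others. Table and group therefore cannot be told apart in any comparison with sgTrp53+MYC tumors. Trp53, the target of the guide, stood at 46.8 ± 22.6 CPM (reads on a gene scaled to the size of the library; SD, n = 5) in sgTrp53+MYC tumors, at 138 ± 32.5 and 139.5 ± 17.8 CPM in Aldafermin+MYC and FGF19+MYC tumors, and at 32.8 ± 2.98 CPM in livers. The summed level of 10 hepatocyte markers, none of which was at 0 in any group, was 189123 to 240585 CPM in livers, 8220.1 to 29736 CPM in the FGF19+MYC and Aldafermin+MYC tumors and 3521 to 11481 CPM in sgTrp53+MYC tumors. Its part in the results below was not tested.

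All 36 members passed the filter of at least 1 CPM in at least 5 libraries, which left 14333 genes for testing, and the thinnest value, Pars2 in Liver replicate 1, still rested on 73 reads. Together the members took 0.197% ± 0.0310 of the gene reads in livers (SD, n = 5), 0.574% ± 0.0535 in Aldafermin+MYC, 0.572% ± 0.0563 in FGF19+MYC and 0.521% ± 0.0775 in sgTrp53+MYC tumors. The highest liver share, 0.240%, lay below the lowest tumor share, 0.411%. A share of gene reads follows total count scaling, so it also carries what that scaling does to all genes. Under it the median log2 change of all genes against livers was 0.94 in FGF19+MYC and Aldafermin+MYC tumors together and 0.95 in sgTrp53+MYC tumors.

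Upstream sequence from RefSeq (build GRCm38.p6) was at hand for 26 of the 36 members, and the 250 bases before the start were searched on both strands for the E-box CACGTG that MYC and MAX bind, the amino acid response element TGATGNAA and the NRF1 core (GCGCA, any base, GCGC). The E-box stood before Aars, Farsb and Iars, which is 11.5% of the members with a sequence against 6.02% of all 32851 promoters. The amino acid response element stood before Aars, Gars and Tars, also 11.5% against 3.45% of all promoters, and the NRF1 core before Kars and Tars, 7.69% against 3.74%. None of the 13 mitochondrial members with a sequence held any of these letters in this window. The other 10 members, Vars, Cars and Wars among them, had no entry. The sequences below are the members with an E-box or a response element, shown because Aars and Tars moved against the rest of the cytosolic family in the tumors while Gars, Iars and Farsb moved with it; capitals mark the motifs, which can be read on either strand, and the last base is the one before the start.
Aars, chr8:111033592-111033841, plus strand: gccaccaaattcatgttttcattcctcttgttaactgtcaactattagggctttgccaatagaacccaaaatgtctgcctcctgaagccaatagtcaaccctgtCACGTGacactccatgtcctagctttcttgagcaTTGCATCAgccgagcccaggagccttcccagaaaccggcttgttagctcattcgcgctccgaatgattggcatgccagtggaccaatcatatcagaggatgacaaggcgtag
Tars, chr15:11399659-11399908, minus strand: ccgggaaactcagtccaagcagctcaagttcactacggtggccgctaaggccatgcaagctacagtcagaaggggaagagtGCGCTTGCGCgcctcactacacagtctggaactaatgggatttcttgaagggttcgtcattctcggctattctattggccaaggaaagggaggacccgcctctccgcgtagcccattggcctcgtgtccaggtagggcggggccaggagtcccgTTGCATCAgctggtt
Gars, chr6:55037751-55038000, plus strand: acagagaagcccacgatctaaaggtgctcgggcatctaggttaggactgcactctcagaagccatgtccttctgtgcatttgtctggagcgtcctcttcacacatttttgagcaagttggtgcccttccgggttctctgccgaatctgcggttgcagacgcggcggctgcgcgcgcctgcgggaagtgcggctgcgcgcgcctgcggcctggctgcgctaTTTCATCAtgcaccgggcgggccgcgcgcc
Iars, chr13:49681880-49682129, plus strand: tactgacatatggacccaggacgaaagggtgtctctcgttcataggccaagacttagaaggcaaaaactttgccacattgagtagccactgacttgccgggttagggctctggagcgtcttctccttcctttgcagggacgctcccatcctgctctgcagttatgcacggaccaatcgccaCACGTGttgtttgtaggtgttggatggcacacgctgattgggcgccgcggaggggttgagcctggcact
Farsb, chr1:78488898-78489147, minus strand: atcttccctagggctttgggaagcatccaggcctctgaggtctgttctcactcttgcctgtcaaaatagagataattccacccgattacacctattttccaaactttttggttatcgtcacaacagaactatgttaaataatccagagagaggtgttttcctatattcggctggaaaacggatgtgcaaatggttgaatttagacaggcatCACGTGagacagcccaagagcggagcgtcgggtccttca
In Aars the E-box began 146 bases and the response element 112 bases before the start, in Tars the response element began 15 and the NRF1 core 169 bases before it, and in Gars the response element began 30 bases before it. The E-box began 69 bases before the start of Iars and 39 bases before that of Farsb. A match describes letters only and no binding was measured.

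Most synthetase genes stood higher in tumors than in livers. In the FGF19+MYC tumors pooled with those of Aldafermin+MYC (n = 10), called the pooled tumors from here on, 30 of the 36 members were called higher and 4 lower than in livers (n = 5) at an adjusted p under 0.05 (edgeR's quasi-likelihood test with Benjamini-Hochberg adjustment over 14333 genes), where 39.2% of all genes were called higher and 34.5% lower. In sgTrp53+MYC tumors (n = 5) 28 members were called higher and 4 lower, against 36.9% and 33% of all genes. The median log2 fold change of the members was 1.15 in the first comparison and 1.13 in the second, beside 0.10 and 0.07 over all genes tested. Both comparisons use the same 5 livers. With total count scaling, which moved the median of all genes to 0.94 and 0.95, the counts were 33 higher and 1 lower in the pooled and 33 higher and 2 lower in sgTrp53+MYC tumors. Of all 14333 genes, 8763 were then called higher and 2629 lower in the pooled tumors, and 8534 higher and 2423 lower in sgTrp53+MYC tumors. In 26 members no pooled tumor library reached down to the highest liver, against 28.5% of all genes, and the count for sgTrp53+MYC tumors was also 26, against 28.8%. In 3 members each, all tumors lay below all livers, against 25.7% of all genes in the pooled tumors (Aars, Tars and Fars2) and 27.4% in sgTrp53+MYC tumors (Aars, Fars2 and Lars2).

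**Figure D1:**
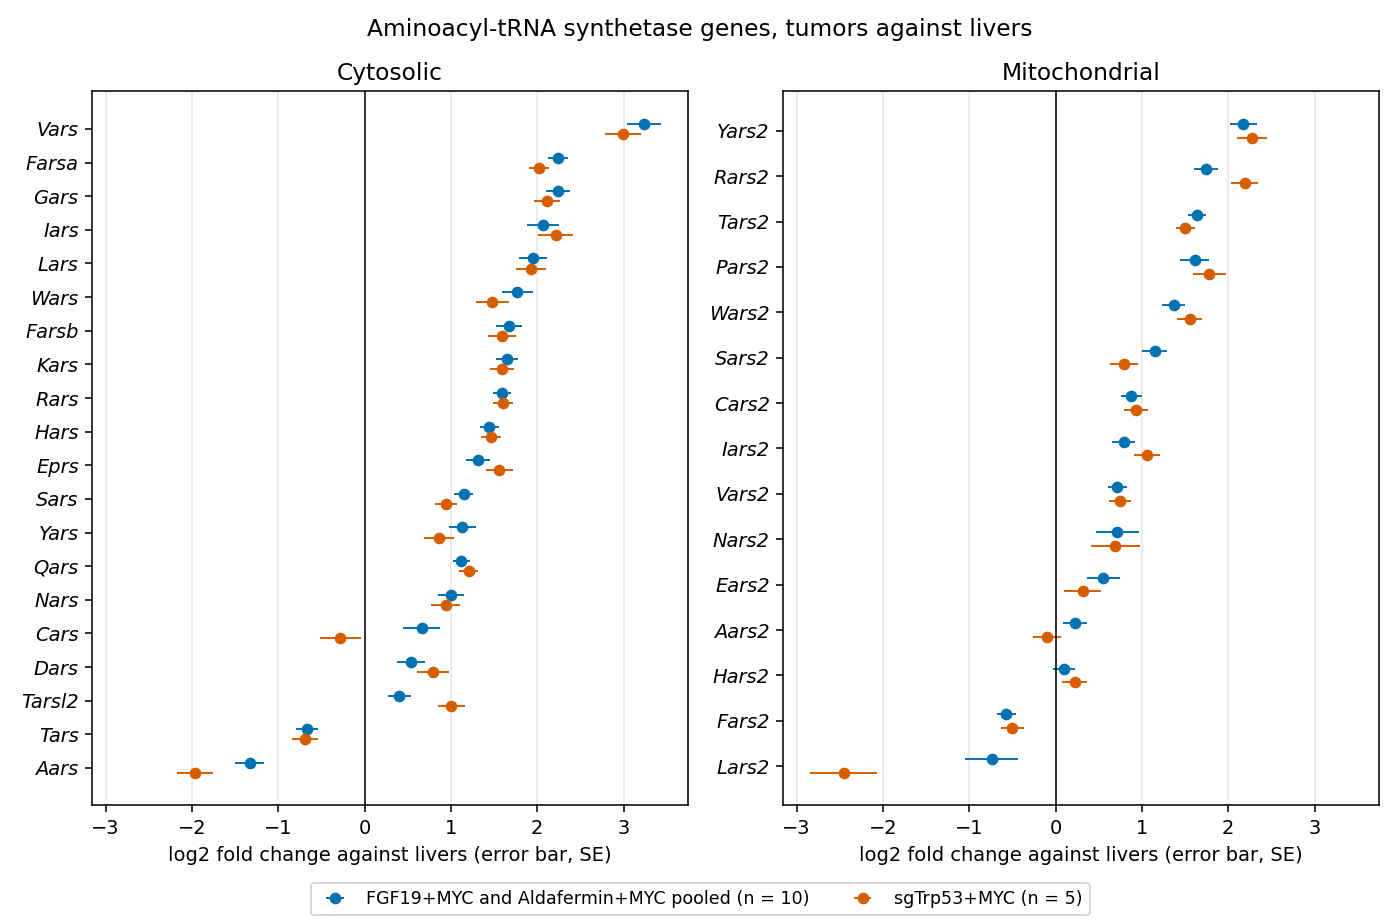
log2 fold change against livers (x axis) of the cytosolic (left) and 15 of the 16 mitochondrial (right) synthetase genes in the pooled tumors (blue, n = 10) and the sgTrp53+MYC tumors (orange, n = 5), each against 5 livers; bars are the SE of the fit. Vars lies farthest to the right in both colors, and Aars, Tars, Fars2 and Lars2 in both colors and Cars and Aars2 in orange lie left of 0; with total count scaling Tars and Fars2 in both colors, Lars2 in blue and Cars and Aars2 in orange move to the right of 0.

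Vars, the cytosolic valyl enzyme, had the largest log2 fold change of all members in both comparisons. Its level was 56.5, 61.1, 62.0, 66.04 and 51.0 CPM in the 5 livers and 281, 442, 434, 630.2 and 582 CPM in sgTrp53+MYC tumors. The FGF19+MYC tumors had 482, 651, 613, 557 and 551 CPM and the Aldafermin+MYC tumors 659, 583, 626, 485 and 378 CPM. All tumors lay far above all livers, and the lowest tumor values were sgTrp53+MYC replicate 1 and Aldafermin+MYC replicate 5. The fold was 9.41 in the pooled tumors (log2 3.23 ± 0.20 SE, edgeR adjusted p = 2.48e-11) and 7.98 in sgTrp53+MYC tumors (log2 3.00 ± 0.21, edgeR adjusted p = 1.96e-10). Per kilobase of its canonical transcript Vars ranked 18 of 36 in livers at 14.0 ± 1.36 CPM per kilobase (SD, n = 5) and 2 of 36 in each tumor group, at 129 ± 27.1, 135 ± 15.3 and 112 ± 32.6 CPM per kilobase in Aldafermin+MYC, FGF19+MYC and sgTrp53+MYC tumors. Kars, the next or previous gene in that order, lay within the SD of Vars in each tumor group.

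Farsa and Farsb encode the subunits of the cytosolic phenylalanyl enzyme, which works as a tetramer of both. Farsa was at 22.5, 18.7, 21.9, 22.2 and 23.1 CPM in livers and 77.1, 85.3, 79.5, 96.8 and 100.7 CPM in sgTrp53+MYC tumors. In the FGF19+MYC group it was 106, 122, 107, 101.0 and 96.2 CPM, and in the Aldafermin+MYC group 122, 99.4, 92.1, 95.6 and 83.8 CPM. Farsb was at 36.3, 40.0, 42.4, 37.5 and 35.1 CPM in livers and 77.9, 121, 99.4, 130.0 and 148 CPM in sgTrp53+MYC tumors. Levels in FGF19+MYC tumors were 102, 117, 133, 141 and 109.5 CPM, and those in Aldafermin+MYC tumors 153, 138, 104, 108 and 115 CPM. Every tumor stood above every liver for both subunits. The log2 fold changes in the pooled and the sgTrp53+MYC tumors were 2.24 ± 0.11 and 2.02 ± 0.12 for Farsa and 1.67 ± 0.15 and 1.59 ± 0.16 for Farsb (SE, edgeR adjusted p from 1.84e-12 to 4.31e-08).

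Gars and Kars, which serve both compartments, also rose. Gars was at 56.2, 56.8, 61.4, 65.8 and 54.8 CPM in livers and 229, 277, 205, 267 and 302 CPM in sgTrp53+MYC tumors. The FGF19+MYC tumors had 310.1, 254, 293, 302 and 221 CPM and the Aldafermin+MYC tumors 334, 284, 218, 243 and 324 CPM. Kars, a member of the complex, was at 93.8, 93.3, 90.2, 108 and 90.8 CPM in livers and 266, 307, 240.0, 337 and 284 CPM in sgTrp53+MYC tumors. In the FGF19+MYC group it was 338, 297, 319, 318 and 257 CPM, and in the Aldafermin+MYC group 362, 313, 241, 248 and 292 CPM. Neither gene had a tumor within the range of the livers. The log2 fold changes in the pooled and the sgTrp53+MYC tumors were 2.24 ± 0.14 and 2.12 ± 0.15 for Gars and 1.65 ± 0.12 and 1.59 ± 0.14 for Kars (SE, edgeR adjusted p from 3.49e-11 to 4.18e-09).

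The 7 members placed in the multi-synthetase complex were Dars, Eprs, Iars, Kars, Lars, Qars and Rars. The rule matched no gene for methionine, so these need not be all of its synthetases. All 7 were called higher against livers in both tumor comparisons, with medians of 1.59 and 1.59 on the log2 scale. Eprs, the enzyme that charges both glutamate and proline, was at 134, 138, 152, 122 and 112 CPM in livers and 343, 346, 370.3, 436 and 449 CPM in sgTrp53+MYC tumors. Levels in FGF19+MYC tumors were 276, 332, 379, 383 and 284 CPM, and those in Aldafermin+MYC tumors 388, 363, 281, 339 and 243 CPM. Its tumor and liver ranges did not meet (log2 1.31 ± 0.14 and 1.56 ± 0.15, edgeR adjusted p = 6.61e-08 and 3.30e-08). Lars, Rars and Qars, the leucyl, arginyl and glutaminyl enzymes, stood at 1.95, 1.59 and 1.12 in the pooled and 1.93, 1.60 and 1.20 in sgTrp53+MYC tumors. The smallest rise in the complex was that of Dars, the aspartyl enzyme, with log2 fold changes of 0.54 ± 0.16 and 0.79 ± 0.18, and the largest that of Iars, the isoleucyl enzyme, with 2.06 ± 0.19 and 2.21 ± 0.20. The scaffold genes Aimp1, Aimp2 and Eef1e1 were all called higher too, in both comparisons, with Eef1e1 at log2 2.54 and 2.69, Aimp2 at 2.30 and 1.86, and Aimp1 at 1.12 and 1.14 (edgeR adjusted p from 2.40e-09 to 0.000781). Among the 13 cytosolic members outside the complex 11 were called higher and 2 lower in the pooled tumors (median 1.15) and 10 higher and 2 lower in sgTrp53+MYC tumors (median 1.01). Hars, Sars, Yars and Nars, the histidyl, seryl, tyrosyl and asparaginyl enzymes, rose by 1.44, 1.15, 1.13 and 1.00 on the log2 scale in the pooled tumors and by 1.47, 0.94, 0.86 and 0.94 in sgTrp53+MYC tumors.

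Synthetases fall into classes I and II by the fold of their catalytic domain, and Eprs joins an enzyme of each. Of the 16 other class I genes 15 were called higher and 1, Lars2, lower in the pooled tumors, and 13 higher and Lars2 lower in sgTrp53+MYC tumors, with medians of 1.25 and 1.34 on the log2 scale. Of the 19 class II genes 14 were called higher and 3, Aars, Tars and Fars2, lower in each comparison, with medians of 1.15 and 0.94.

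Wars, the tryptophanyl enzyme, is known as a gene that interferon gamma induces. It was at 20.6, 19.1, 25.003, 24.1 and 22.9 CPM in livers and 39.1, 73.4, 64.2, 65.1 and 69.2 CPM in sgTrp53+MYC tumors. The FGF19+MYC tumors had 50.5, 90.7, 85.9, 86.2 and 78.3 CPM and the Aldafermin+MYC tumors 86.2, 83.6, 67.0, 83.7 and 49.4 CPM. No tumor overlapped with the livers, and replicate 1 of both the FGF19+MYC and the sgTrp53+MYC group lay apart from the other 4 of its group (log2 1.77 ± 0.18 and 1.48 ± 0.19, edgeR adjusted p = 2.96e-08 and 1.25e-06). Of 11 other interferon gamma response genes tested, 1 was called higher and 8 lower in the pooled tumors (median -1.34), and 1 higher and 6 lower in sgTrp53+MYC tumors (median -1.31). Cxcl10 was the one called higher (log2 3.63 and 2.28), while Psmb8, a subunit of the immunoproteasome, fell (-1.99 and -2.08).

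**Figure D2:**
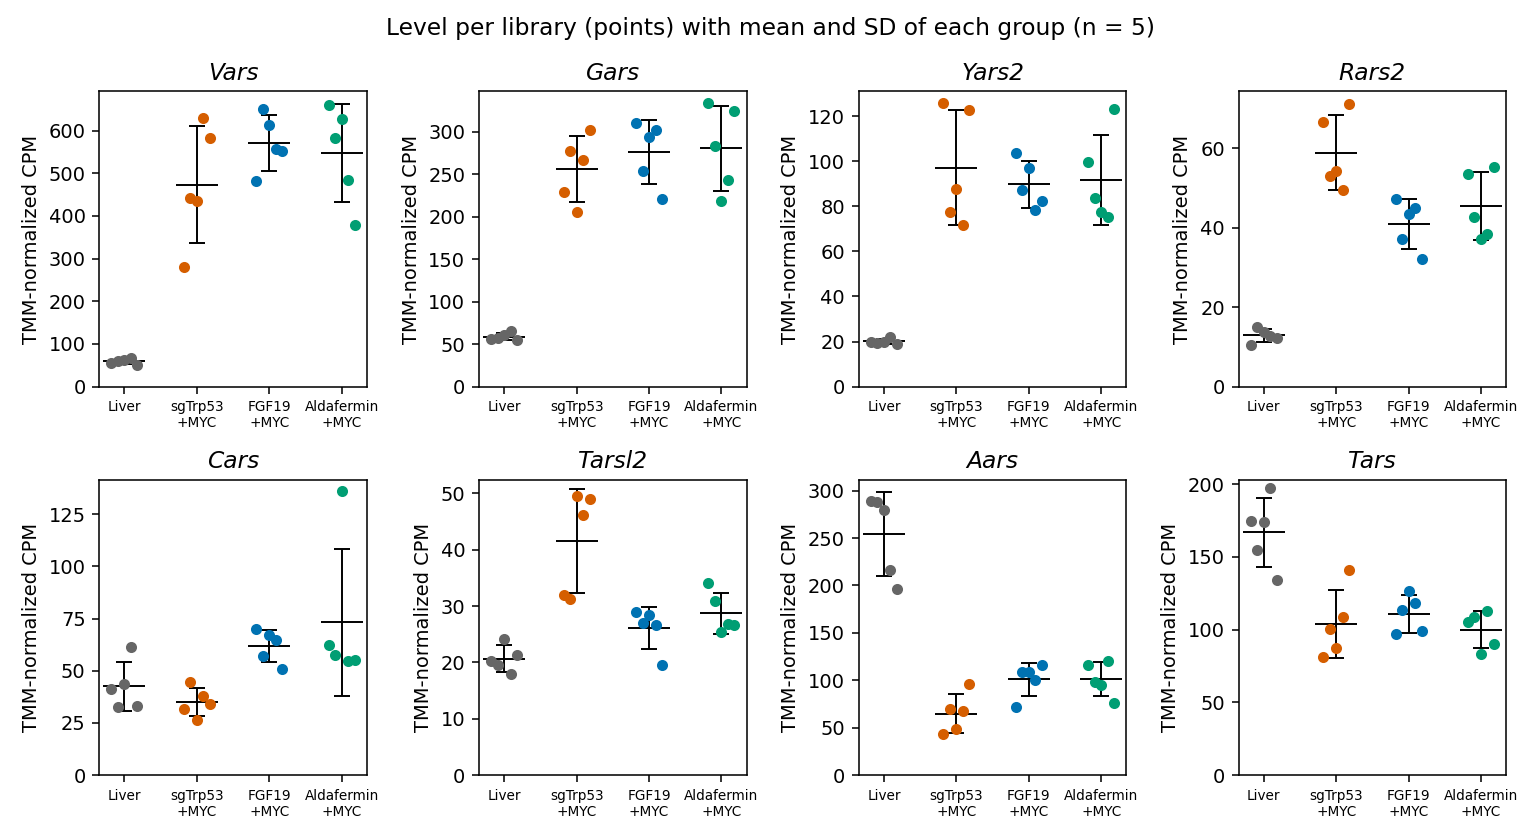
TMM-normalized CPM (y axis, from 0) of 8 synthetase genes in every library of the 4 groups; points are libraries and the bars give the mean and SD (n = 5). Vars, Gars, Yars2 and Rars2 stand higher in all 15 tumors than in the 5 livers, Aars stands lower in all of them, and Cars and Tarsl2 differ between sgTrp53+MYC and the other tumors.

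In the pooled tumors 12 of the 16 mitochondrial members were called higher and 2 lower, with a median of 0.83 on the log2 scale, and in sgTrp53+MYC tumors 11 were called higher and 2 lower, with a median of 0.86. Among the 20 cytosolic members the counts were 18 higher and 2 lower (median 1.38), and 17 higher and 2 lower (median 1.47). The summed level of all 16 mitochondrial members showed no rise, with most of the liver sum in Lars2. It was 1594 ± 621 CPM in livers and 1569 ± 380, 1471 ± 229 and 1080 ± 101 CPM in Aldafermin+MYC, FGF19+MYC and sgTrp53+MYC tumors (SD, n = 5). Without Lars2 the sum of the other 15 went from 435 ± 6.34 CPM in livers to 831 ± 77.8, 820.3 ± 89.0 and 869 ± 73.8 CPM in the same tumors. The summed level of the 20 cytosolic members went from 1494 ± 117 CPM to 3429 ± 391, 3509.9 ± 296 and 3329 ± 533 CPM.

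Yars2, the mitochondrial tyrosyl enzyme, had the largest log2 fold change among them. It was at 19.9, 19.6, 19.6, 22.2 and 19.1 CPM in livers and 126, 77.6, 87.5, 71.8 and 122.9 CPM in sgTrp53+MYC tumors. In the FGF19+MYC group it was 103, 87.5, 97.0, 78.5 and 82.4 CPM, and in the Aldafermin+MYC group 99.5, 83.5, 77.6, 75.1 and 123.2 CPM. All tumors lay above all livers, and 2 libraries of the sgTrp53+MYC group and 1 of the Aldafermin+MYC group stood above the other tumors (log2 2.18 ± 0.16 and 2.27 ± 0.17, edgeR adjusted p = 3.30e-10 and 7.80e-10). The exons of its canonical transcript overlap those of Dnm1l on the opposite strand over 50.3% of their length. Tars2, Pars2 and Wars2, the threonyl, prolyl and tryptophanyl enzymes, had log2 fold changes of 1.64, 1.61 and 1.37 in the pooled tumors and 1.50, 1.78 and 1.56 in sgTrp53+MYC tumors. Sars2, Cars2, Iars2 and Vars2 stood at 1.15, 0.88, 0.79 and 0.72 in the pooled and at 0.79, 0.93, 1.06 and 0.74 in sgTrp53+MYC tumors, all called higher. Hars2 (0.10 ± 0.13 and 0.22 ± 0.15) and Aars2 (0.23 ± 0.14 and -0.10 ± 0.16), the histidyl and alanyl enzymes, passed the test in neither comparison (edgeR adjusted p from 0.154 to 0.582). In the pooled tumors Aars2 was called higher in 4 of 27 alternatives, without Aldafermin+MYC replicate 5 (0.36, edgeR adjusted p = 0.0121), with no filter on low counts (0.40, 0.0272), with a GC and length correction (0.38, 0.00208) and with total count scaling (1.08), within a range of 1.87e-05 to 0.309. In sgTrp53+MYC tumors Hars2 was called higher in 3 of 20 alternatives, with no filter (0.51, edgeR adjusted p = 0.0170), with only the compared groups (0.36, 0.0357) and with total count scaling (1.10), within a range of 2.03e-07 to 0.485. Total count scaling also gave calls for Hars2 in the pooled tumors (0.93) and Aars2 in sgTrp53+MYC tumors (0.79). Ears2, the glutamyl enzyme, was called higher in the pooled tumors (0.55 ± 0.19, edgeR adjusted p = 0.0138; 0.44 and 0.0776 with FGF19+MYC tumors alone, within a range of 1.22e-05 to 0.0776 over 27 alternatives) and not in sgTrp53+MYC tumors (0.32 ± 0.21, edgeR adjusted p = 0.196), where 4 of 20 alternatives called it, among them leaving out sgTrp53+MYC replicate 1 (0.51 ± 0.14, edgeR adjusted p = 0.00305, with a range of 0.000159 to 0.588 over the alternatives). Nars2, the asparaginyl enzyme, was called higher in the pooled tumors (0.71 ± 0.25, edgeR adjusted p = 0.0146) and in sgTrp53+MYC tumors (0.69 ± 0.28, edgeR adjusted p = 0.0333). The call in sgTrp53+MYC tumors was lost without that same library (0.35, edgeR adjusted p = 0.190), without Liver replicate 1, 3 or 4 (0.65, 0.66 and 0.63) and with a GC and length correction, with adjusted p from 7.12e-06 to 0.190 over 20 alternatives.

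Aars, the cytosolic alanyl enzyme, went the other way. Its level was 289.6, 288, 279.8, 217 and 196 CPM in livers and 43.3, 69.7, 48.6, 67.4 and 95.9 CPM in sgTrp53+MYC tumors. Levels in FGF19+MYC tumors were 72.2, 108, 109, 99.9 and 116 CPM, and those in Aldafermin+MYC tumors 116, 97.8, 94.98, 120.5 and 76.3 CPM. Every tumor lay below every liver, and the lowest values were in sgTrp53+MYC tumors. The level was 0.398 times that of livers in the pooled tumors (log2 -1.33 ± 0.17, edgeR adjusted p = 6.45e-07) and 0.256 times in sgTrp53+MYC tumors (log2 -1.97 ± 0.21, edgeR adjusted p = 7.52e-08). The fall held with total count scaling, where the log2 values were -0.48 and -1.08. Over 23.0% of the exon length of its canonical transcript Aars overlaps Exosc6 on the same strand.

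Tars, the cytosolic threonyl enzyme, was at 175, 155, 174, 197 and 134 CPM in livers and 81.2, 100.5, 87.4, 109 and 141 CPM in sgTrp53+MYC tumors. The FGF19+MYC tumors had 96.8, 113, 127, 119 and 98.8 CPM and the Aldafermin+MYC tumors 105, 108, 83.2, 113 and 90.0 CPM. The pooled tumors stayed below all livers, while sgTrp53+MYC replicate 5 stood above Liver replicate 5 (log2 -0.67 ± 0.13 and -0.69 ± 0.15, edgeR adjusted p = 0.000101 and 0.000457). Its paralog Tarsl2 was at 20.3, 19.6, 24.3, 18.03 and 21.3 CPM in livers and 32.0, 31.2, 49.5, 46.1 and 49.0 CPM in sgTrp53+MYC tumors. In the FGF19+MYC group it was 28.9, 27.0, 28.5, 26.7 and 19.6 CPM, and in the Aldafermin+MYC group 34.1, 30.8, 25.3, 26.8 and 26.6 CPM. Tarsl2 was called higher than in livers in both comparisons (log2 0.40 ± 0.14 and 1.00 ± 0.15, edgeR adjusted p = 0.0114 and 1.04e-05; 0.0592 for the first with FGF19+MYC tumors alone, the highest over 27 alternatives, of which the lowest was 9.42e-07), with all 5 sgTrp53+MYC tumors above the livers and 1 FGF19+MYC tumor within their range. Fars2, the mitochondrial phenylalanyl enzyme, ran from 48.6 to 54.1 CPM in livers and from 31.8 to 41.8, 29.4 to 44.9 and 27.7 to 42.9 CPM in sgTrp53+MYC, FGF19+MYC and Aldafermin+MYC tumors (log2 -0.57 ± 0.11 and -0.50 ± 0.13, edgeR adjusted p = 0.000142 and 0.00233). With total count scaling Tars stood at 0.18 and 0.20 and Fars2 at 0.26 and 0.38, below the median of all genes in each case, and Fars2 was then called higher in both comparisons (edgeR adjusted p = 0.0147 and 0.00343, with ranges of 2.67e-06 to 0.0205 and 0.000697 to 0.289 over the alternatives) while Tars passed the test in neither (0.270 and 0.298, with ranges from 5.88e-08 and 3.83e-06 up to these values). In sgTrp53+MYC tumors the call of Fars2 was also lost with a GC and length correction (-0.30, edgeR adjusted p = 0.0669) and with no filter on low counts (-0.22, 0.289), and that of Tars with no filter (-0.40, 0.0554).

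The enzymes of one amino acid in the cytosol and in mitochondria were set against each other within each library, where the scaling of the library drops out. The log2 ratio of reads on Tars over reads on Tars2 was 2.18 ± 0.21 in livers and -0.02 ± 0.29, -0.05 ± 0.29 and -0.17 ± 0.25 in sgTrp53+MYC, FGF19+MYC and Aldafermin+MYC tumors (SD, n = 5). The ratio of Aars over Aars2 was 2.99 ± 0.24 in livers and 1.10 ± 0.27, 1.42 ± 0.15 and 1.47 ± 0.14 in the same tumors. For both pairs the lowest liver ratio lay above the highest tumor ratio, so the balance of reads lay farther toward the mitochondrial gene in tumors. The opposite held for Farsa over Fars2, with -1.25 ± 0.13 in livers and 1.27 ± 0.29, 1.66 ± 0.28 and 1.48 ± 0.30 in tumors, and for Vars over Vars2, with 0.43 ± 0.12 in livers and 2.63 ± 0.36, 2.95 ± 0.22 and 2.94 ± 0.07 in tumors. In these pairs no tumor ratio reached the liver range. The ratio of Sars over Sars2, the seryl enzymes, was 2.22 ± 0.12 in livers and lay between 2.21 ± 0.18 and 2.38 ± 0.43 in the tumor groups. Of the 17 pairs of a cytosolic and a mitochondrial gene, the cytosolic gene had the larger log2 fold change in 10 pairs in the pooled tumors and in 9 pairs in sgTrp53+MYC tumors.

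**Figure D3:**
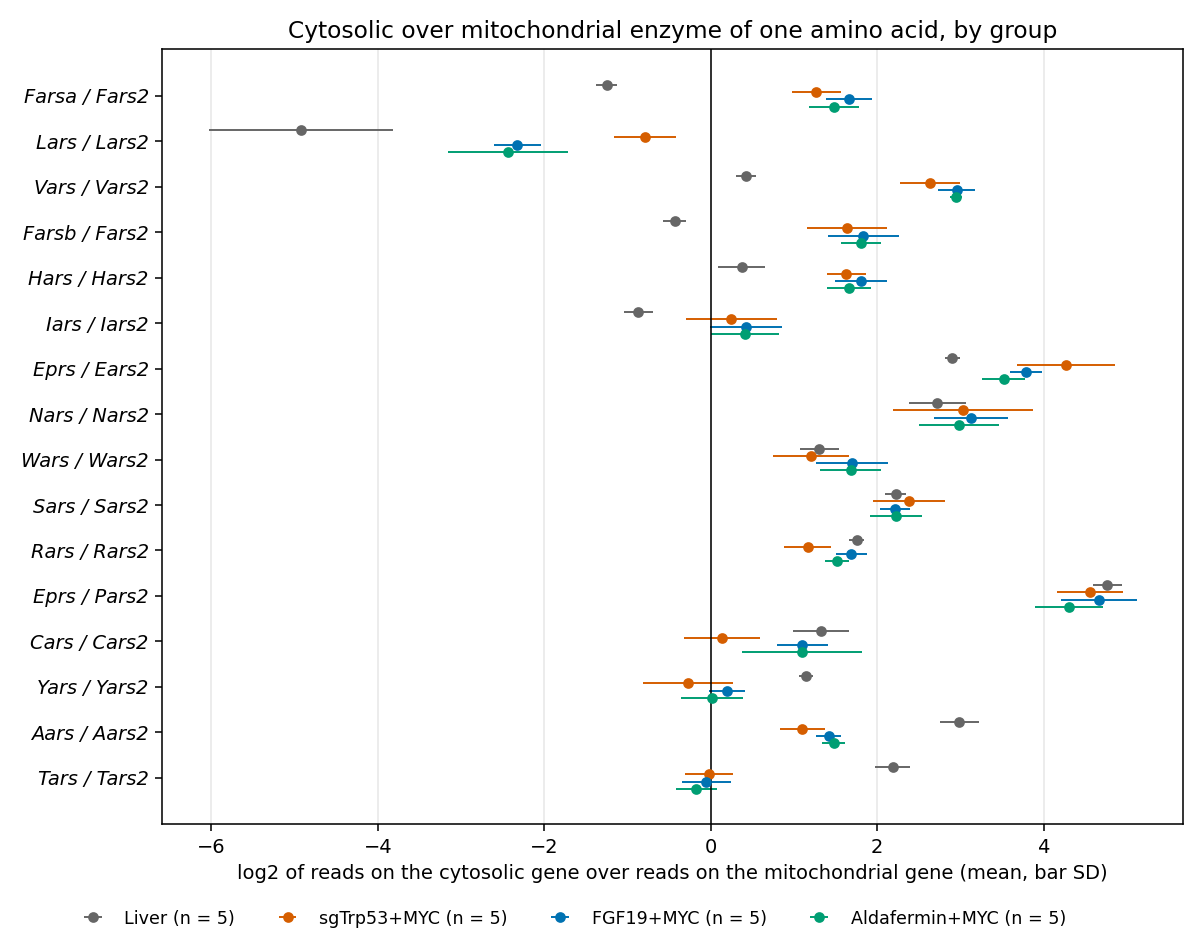
log2 ratio of reads on the cytosolic gene over reads on the mitochondrial gene of the same amino acid (x axis) for 16 of the 17 pairs, as the mean and SD of the 5 libraries of each group. The livers (grey) lie left of all tumor groups for Farsa / Fars2 and Vars / Vars2 and right of them for Tars / Tars2 and Aars / Aars2.

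Lars2, the mitochondrial leucyl enzyme, was the member with the most uneven level. It was at 935, 952, 337, 1871 and 1699.6 CPM in livers and 259, 214, 161, 207 and 215 CPM in sgTrp53+MYC tumors. Levels in FGF19+MYC tumors were 885, 637, 622, 612 and 500.1 CPM, and those in Aldafermin+MYC tumors 701, 762, 802, 265 and 1159 CPM. The livers spanned the range of the FGF19+MYC tumors, Aldafermin+MYC replicate 4 and Liver replicate 3 lay below the rest of their groups, and all sgTrp53+MYC tumors lay below all other libraries. Against livers the log2 change was -2.46 ± 0.38 in sgTrp53+MYC tumors (edgeR adjusted p = 1.27e-05) and -0.74 ± 0.31 in the pooled tumors (edgeR adjusted p = 0.0362). The second call was lost in 12 of 27 alternatives, among them leaving out Liver replicate 4 (-0.51, edgeR adjusted p = 0.158) or Liver replicate 5 (-0.58, 0.124), Aldafermin+MYC replicate 1 or FGF19+MYC replicate 3, 4 or 5, and the value was 0.10 with total count scaling, with adjusted p from 0.00267 to 0.751 over the alternatives.

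Transcripts of Lars2 share an identical run of 55 bases with Gm15564, a long noncoding RNA gene on chromosome 16 (GRCm39 chr16:35776121-35803658, minus strand). In Lars2 the run lies at chr9:123291110-123291164 on the plus strand, in the last part of the messenger 366 bases after the stop codon, and 6 of 20 annotated Lars2 transcripts hold it. Gm15564, which was chosen after its values were seen, stood at 20.5 ± 11.6 CPM in livers, 12.9 ± 6.48 CPM in Aldafermin+MYC, 13.1 ± 4.78 CPM in FGF19+MYC and 1.09 ± 0.577 CPM in sgTrp53+MYC tumors (SD, n = 5). It was lowest within its group in Liver replicate 3 (5.48 CPM), Aldafermin+MYC replicate 4 (4.61 CPM) and sgTrp53+MYC replicate 3 (0.634 CPM), the libraries in which Lars2 was lowest too. In the FGF19+MYC group the libraries differed, with Gm15564 lowest in replicate 4 (8.72 CPM) and Lars2 in replicate 5. In the pooled tumors against sgTrp53+MYC tumors the log2 change of Gm15564 was 3.58 ± 0.46 (edgeR adjusted p = 3.92e-05). Its part in the values of Lars2 was not tested.

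**Figure D4:**
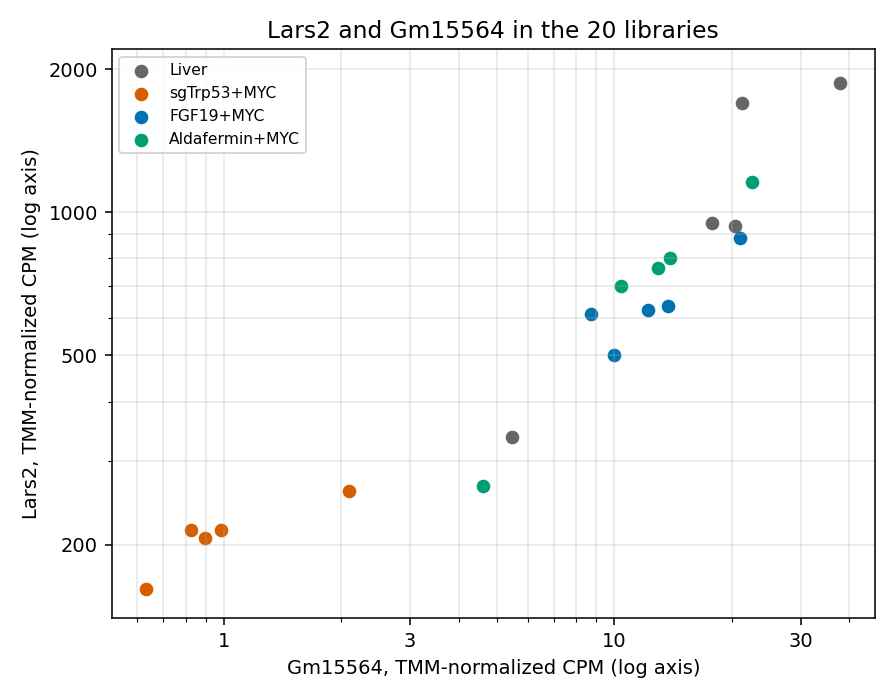
TMM-normalized CPM of Lars2 (y axis, log) against that of Gm15564 (x axis, log) in the 20 libraries, colored by group. The 5 sgTrp53+MYC libraries lie lowest on both axes, at 161 to 259 CPM of Lars2 and 0.634 to 2.09 CPM of Gm15564.

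Aldafermin+MYC was then set against FGF19+MYC, the comparison of the analog with the hormone it derives from. None of the 36 members was called in either direction by edgeR's quasi-likelihood test, and none had an unadjusted p under 0.05, beside 0% of all genes called and 7.31% with an unadjusted p under 0.05. DESeq2 and edgeR's likelihood ratio test also called no member. The median log2 difference of the members was -0.01, beside 0.02 over all genes. The 95% interval of the difference lay within 1 log2 unit of 0 for all 36 members and within 0.5 for 30. The largest difference was that of Pars2, 0.31 with a 95% interval of -0.06 to 0.69, and the widest interval was that of Lars2, 0.18 with -0.58 to 0.94. For Cars, the cysteinyl enzyme, the difference was 0.24 (-0.26 to 0.74), with 1 Aldafermin+MYC library, replicate 3, at 136 CPM. Vars differed by -0.06 (-0.46 to 0.34) and Aars by less than 0.01 (-0.42 to 0.42).

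Between the tumor models 5 members differed. In the pooled tumors against sgTrp53+MYC tumors, Lars2, Cars and Aars were called higher and Tarsl2 and Rars2 lower (edgeR's quasi-likelihood test with Benjamini-Hochberg adjustment), which is 13.9% of the members beside 23.7% of all genes, with 11.6% of all genes higher and 12.1% lower. At an unadjusted p under 0.05 there were 8 members, beside 36.2% of all genes. The median of the members was 0.02 on the log2 scale beside -0.02 over all genes. The 7 members placed in the complex had a median of -0.08, with none called by edgeR and none at an unadjusted p under 0.05. For 21 of the 36 members the 95% interval lay within 0.5 log2 units of 0 and for 33 within 1.

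Cars was at 31.8, 44.4, 26.5, 38.1 and 34.1 CPM in sgTrp53+MYC, 69.8, 56.9, 66.9, 64.9 and 51.0 CPM in FGF19+MYC, 62.3, 57.7, 136, 54.5 and 55.2 CPM in Aldafermin+MYC tumors and 41.5, 32.8, 43.7, 61.5 and 33.2 CPM in livers. All 10 pooled tumors lay above all 5 sgTrp53+MYC tumors, and Lars2 was the only other member of which that was true, where 3.28% of all genes showed it. No member showed the reverse, against 2.42% of all genes. The log2 difference of Cars was 0.94 ± 0.21 (edgeR adjusted p = 0.00390) and that of Lars2 1.71 ± 0.34 (edgeR adjusted p = 0.00155), a fold of 1.92 and 3.28. Against livers Cars was called higher in the pooled tumors (0.66 ± 0.21, edgeR adjusted p = 0.00856) and not in sgTrp53+MYC tumors (-0.28 ± 0.24, edgeR adjusted p = 0.300), where the value was 0.60 with total count scaling. Aars, with the levels given above, was higher by 0.64 ± 0.18 (edgeR adjusted p = 0.0141), with sgTrp53+MYC replicate 5 inside the range of the pooled tumors, and its adjusted p was 0.0508 with no filter on low counts and 0.00329 to 0.0508 over all alternatives.

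Tarsl2 was lower in the pooled tumors than in sgTrp53+MYC tumors by 0.60 ± 0.13 on the log2 scale (edgeR adjusted p = 0.00265), although 2 sgTrp53+MYC libraries lay within the range of the Aldafermin+MYC tumors. Rars2, the mitochondrial arginyl enzyme, was at 66.7, 53.1, 54.2, 49.4 and 71.3 CPM in sgTrp53+MYC, 47.2, 37.2, 43.5, 44.9 and 32.1 CPM in FGF19+MYC, 53.6, 42.7, 37.2, 38.4 and 55.3 CPM in Aldafermin+MYC tumors and 10.5, 15.1, 13.8, 12.7 and 12.4 CPM in livers. All tumors lay far above the livers, and the sgTrp53+MYC range met that of the Aldafermin+MYC tumors and not that of the FGF19+MYC tumors. Its log2 difference was -0.45 ± 0.13 (edgeR adjusted p = 0.0160). The call was lost without sgTrp53+MYC replicate 5 (-0.37, edgeR adjusted p = 0.0615) and with Aldafermin+MYC tumors alone (-0.38, 0.0896), and its adjusted p was 0.00481 to 0.0896 over the alternatives. Without sgTrp53+MYC replicate 5, Aars2 and Yars became called higher. Without Aldafermin+MYC replicate 5, Aars2 and Sars2 became called higher and Dars lower. Iars2 became called lower without FGF19+MYC replicate 1 and with total count scaling (-0.31, edgeR adjusted p = 0.0486). Its adjusted p was 0.0343 to 0.455 over 27 alternatives.

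**Figure D5:**
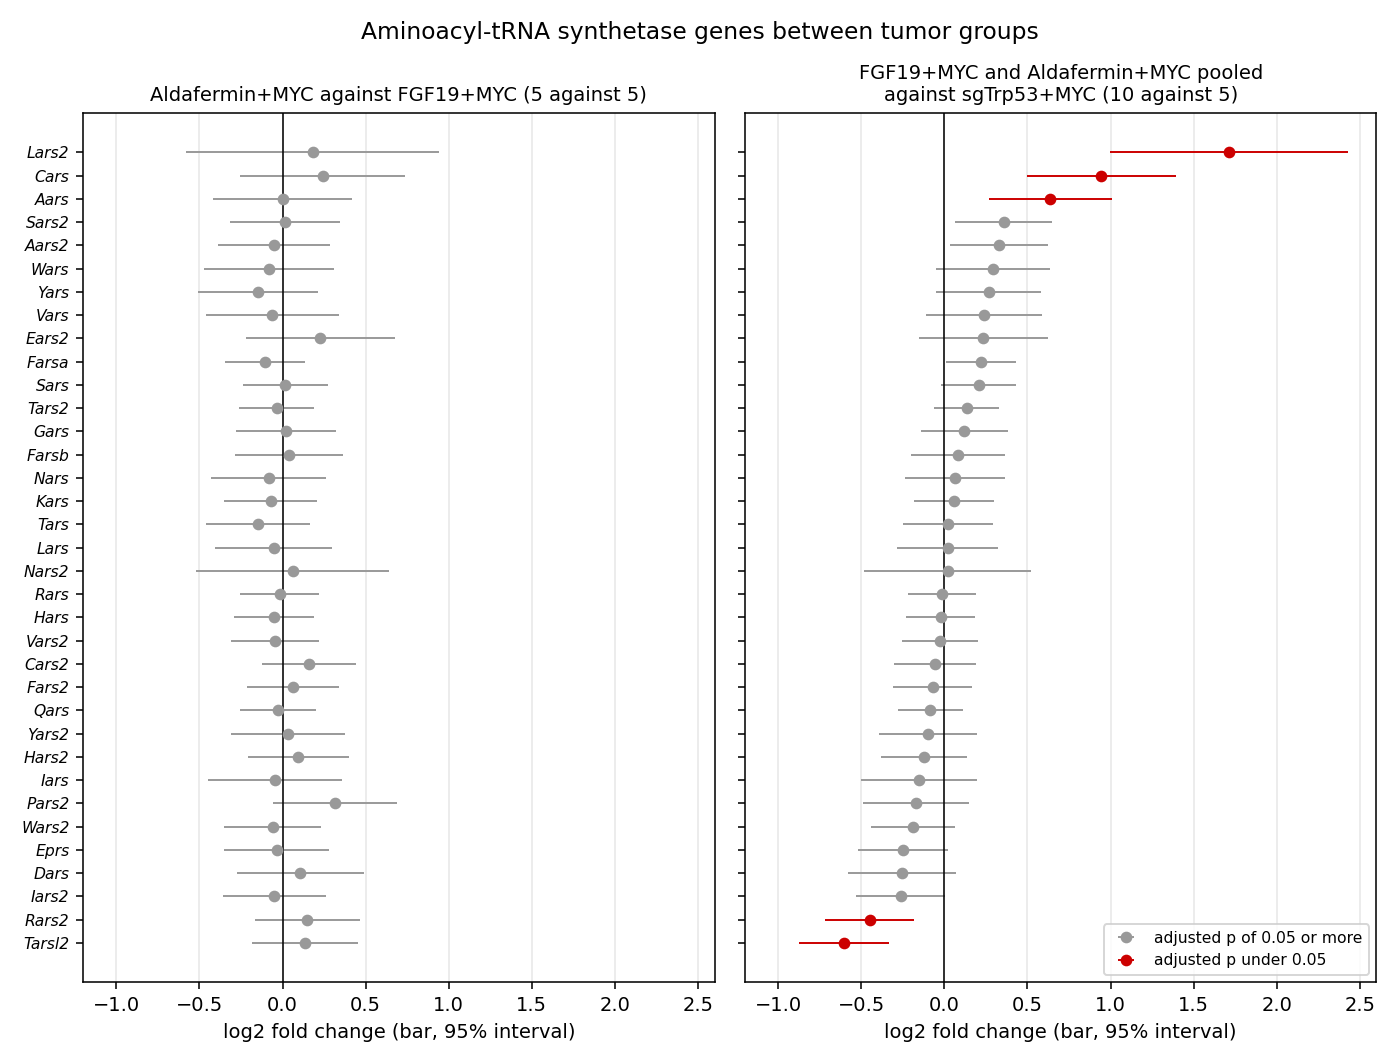
log2 fold change (x axis) with the 95% interval of the synthetase genes, 1 left out, between Aldafermin+MYC and FGF19+MYC tumors (left, 5 against 5) and between both pooled and sgTrp53+MYC tumors (right, 10 against 5). Red marks an adjusted p under 0.05, which Lars2, Cars, Aars, Rars2 and Tarsl2 have on the right and no gene has on the left.

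The other genes of tRNA charging and translation were taken from lists. Of 13 accessory and quality control genes, which edit wrong charges, finish tRNA ends or carry tRNA out of the nucleus, 11 were called higher and 2 lower in the pooled tumors against livers (median 1.11) and 11 higher and 1 lower in sgTrp53+MYC tumors (median 1.12). Trnt1, which adds the CCA end to tRNA, rose by 2.24 and 2.75 on the log2 scale, and Dtd1, which removes D-amino acids from tRNA, by 2.25 and 2.24 (edgeR adjusted p from 2.60e-09 to 4.22e-07). Sepsecs, the enzyme that makes selenocysteyl-tRNA, fell by 1.17 on the log2 scale in the pooled and by 0.79 in sgTrp53+MYC tumors (edgeR adjusted p = 2.07e-07 and 0.000249). Between the pooled and sgTrp53+MYC tumors 1 of the 13 was called higher and 3 lower.

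Of 21 genes of RNA polymerase III, which transcribes tRNA genes, and its factors, 17 were called higher and 1 lower in the pooled tumors against livers (median 0.68) and 18 higher in sgTrp53+MYC tumors (median 0.97). Polr3e and Polr3d stood at 1.99 and 2.24 on the log2 scale in the pooled tumors (edgeR adjusted p = 1.93e-11 and 2.48e-10). Between the tumor models 1 of the 21 was called higher, Polr3e at 0.37, and 3 lower, among them Polr3gl and Maf1, the latter a repressor of this polymerase (-0.71 and -0.49, edgeR adjusted p = 0.00174 and 0.00934). Of 5 cytosolic elongation factors tested, Eef1b2, Eef1d and Eef1g were called higher against livers in both comparisons. Of 6 mitochondrial initiation and elongation factors 3 were called higher and 1 lower in the pooled tumors (median 0.36), and 5 higher and 1 lower in sgTrp53+MYC tumors (median 0.39). Tsfm rose by 2.21 and 1.91, while Mtif3 was the one called lower, at -0.89 and -0.44.

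Of 16 genes of the ATF4 amino acid response tested, 10 were called higher and 2 lower in the pooled tumors against livers (median 0.87) and 8 higher and 6 lower in sgTrp53+MYC tumors (median 0.43). Phgdh and Psat1 of serine synthesis stood at 9.76 and 9.40 on the log2 scale in the pooled tumors and at 9.26 and 8.92 in sgTrp53+MYC tumors, and Slc7a5, a transporter of large neutral amino acids, at 4.42 and 4.00 (edgeR adjusted p from 1.04e-12 to 3.04e-11). The 2 called lower in the pooled tumors were Fgf21 and Cebpb, and in sgTrp53+MYC tumors these were joined by Sesn2, Trib3, Ddit3 and Chac1, at -1.30, -1.82, -1.31 and -1.98 (edgeR adjusted p from 0.000427 to 0.00920), genes named after their values were seen. Between the tumor models 5 of the 16 were called higher in the pooled tumors (median 0.47 beside -0.02 over all genes). They were Sesn2 (2.11), Trib3 (1.72), Atf3 (1.45), Ddit3 (0.89) and Atf4 itself (0.46, edgeR adjusted p = 0.0359). Sesn2 is also known as a target of p53. The list was written without aminoacyl-tRNA synthetases. Its link to Cars and Aars, the only cytosolic synthetases called higher in this comparison, was not tested.

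In livers, level per length placed Lars2 first at 295 ± 159 CPM per kilobase (SD, n = 5), followed by Nars at 46.1 ± 5.86, Aars at 44.0 ± 7.69, Tars at 41.7 ± 5.91, Dars at 40.6 ± 2.16 and Kars at 39.9 ± 3.09 CPM per kilobase, and neighbours among the last 5 of these differed by less than their SD. In sgTrp53+MYC tumors Kars was first at 120.3 ± 15.7, with Vars at 112 ± 32.6 and Gars at 105 ± 15.96 CPM per kilobase within its spread. Cars2, the mitochondrial cysteinyl enzyme, ranked last in all 3 tumor groups, at 4.26 ± 0.775, 3.81 ± 0.376 and 4.19 ± 0.659 CPM per kilobase in Aldafermin+MYC, FGF19+MYC and sgTrp53+MYC tumors, with Nars2, the next gene up, differing by less than its SD in each. Aars ranked 3 of 36 in livers and 22, 22 and 26 of 36 in the same tumor groups.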

How the data were processed

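Bulk RNA-seq of 20 libraries (TruSeq Stranded mRNA, 150 bp paired ends) was analysed from the tables that the authors deposited. Per the study's methods, the authors aligned reads to mm39 with HISAT2 (version not given in the sources used here; bcl2fastq 2.20.0.422 is named in the submitters' processing notes) and counted them per gene with htseq-count and the RefSeq annotation. The deposited values are raw counts in 2 tables of 50564 rows, of which 5 are counter summary lines and were left out of library sizes. The tables were joined by gene symbol.

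The 14333 genes that reached 1 CPM in 5 or more libraries were fitted in one edgeR 4.0.16 quasi-likelihood model of the 4 groups with TMM scaling (R 4.3.3, limma 3.58.1), and p-values were adjusted by Benjamini-Hochberg over all of them with a threshold of 0.05. The SE is that of the log2 fold change. Printed levels are TMM-normalized CPM. The fit was also run on simulated counts with known changes between Aldafermin+MYC and FGF19+MYC tumors. The other comparisons were not simulated. DESeq2 1.42.0, edgeR's likelihood ratio test, other scalings and filters, a replicate block, a GC and length correction and each library left out were the alternatives. Lengths, overlaps and positions came from GENCODE M39 (GRCm39, canonical transcript), and promoters from RefSeq GRCm38.p6.

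Members and lists were proposed with earlier results of these data known, although the symbol rule itself uses no value, so none is independent evidence. All 36 members enter the counts, and the values of 1 member and 1 list gene are not reported here; values per library are given for the 2 highest and 2 lowest called members of each comparison and for members with a special role (Eprs, Wars, Tars, Tarsl2, Farsa, Farsb, Gars, Kars), and for each list the genes named are at most 4 with the smallest adjusted p, unless said otherwise. htseq-count drops reads that meet more than 1 gene or map to several places, so genes that overlap or share sequence can lose reads. Of the 36 members 20 overlap another gene, 19 of them on the opposite strand. There a loss depends on whether reads were counted by strand, which the sources used here do not say. The labels name individual samples of each group, and p-values measure the spread between them. Per the study, each tumor was from a different mouse, and its replicates were biological ones. For the livers it does not state in so many words that each came from a different mouse. Replicates differed beyond counting noise (smallest chi-square per degree of freedom 13.9). Python 3.11.15 with pandas 2.3.3 and matplotlib 3.10.9 was used for tables and figures.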

Additional observations from a re-analysis of the deposited data

Results flagged for a closer look

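In 11 of 140 sets of 5 libraries (35 genes in 4 groups) 1 library lay apart from the other 4 by Dixon's test on log2 CPM at 95%, where chance gives about 1 in 20, or 7 sets. Among the tumors, Cars in Aldafermin+MYC replicate 3 was 136 CPM, beside 54.5 to 62.3 CPM in the other 4. Aars2 in Aldafermin+MYC replicate 5 was 24.9 CPM, beside 38.1 to 40.6 CPM in the other 4. Wars in FGF19+MYC replicate 1 was 50.5 CPM, beside 78.3 to 90.7 CPM in the other 4, and in sgTrp53+MYC replicate 1 39.1 CPM, beside 64.2 to 73.4 CPM in the other 4. Tarsl2 in FGF19+MYC replicate 5 was 19.6 CPM, beside 26.7 to 28.9 CPM in the other 4. Sars in sgTrp53+MYC replicate 3 was 121 CPM, beside 165 to 172 CPM in the other 4, and Sars2 in sgTrp53+MYC replicate 1 was 20.2 CPM, beside 31.3 to 36.7 CPM in the other 4.

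Among the livers, 2 of the 4 values came from replicate 4. In it Kars was 108 CPM, beside 90.2 to 93.8 CPM in the other 4, and Yars2 was 22.2 CPM, beside 19.1 to 19.9 CPM in the other 4. Farsa in Liver replicate 2 was 18.7 CPM, beside 21.9 to 23.1 CPM in the other 4, and Aars2 in Liver replicate 1 was 37.8 CPM, beside 29.4 to 31.4 CPM in the other 4. No cause was tested for any of these values.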

How the results depend on the processing

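Between Aldafermin+MYC and FGF19+MYC tumors no member was called under any of 20 alternatives, whereas over all genes edgeR called 0, DESeq2 73 higher and 23 lower, the likelihood ratio test 52 higher and 7 lower, and the fit without Aldafermin+MYC replicate 4 16 higher and 13 lower. For the pooled tumors against sgTrp53+MYC tumors, the counts of 3 higher and 2 lower went to 1 and 0 without members overlapping another gene (16 members left, so fewer were tested), 1 lower with Aldafermin+MYC tumors alone, and 3 to 5 higher and 1 to 3 lower with 1 library left out. The 5 higher came without Aldafermin+MYC replicate 5 or sgTrp53+MYC replicate 5. Total count scaling gave 3 higher and 3 lower, with Iars2 added, and no filter on low counts gave 2 higher and 2 lower. Over all genes the count lower fell from 1736 to 1079 with Aldafermin+MYC and 1115 with FGF19+MYC tumors alone.

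Against livers, total count scaling gave 1 member lower in the pooled tumors and 2 in sgTrp53+MYC tumors in place of 4, and turned Tars to 0.18 and 0.20, Fars2 to 0.26 and 0.38, and Lars2 in the pooled tumors to 0.10 on the log2 scale, with 8763 genes higher and 2629 lower in place of 5616 and 4945 in the pooled tumors and 8534 and 2423 in place of 5286 and 4733 in sgTrp53+MYC tumors. In sgTrp53+MYC tumors no filter on low counts left 2 members lower (Aars and Lars2), and without overlapping members 14 of 16 were higher and 2 lower. Across all other alternatives, left-out libraries included, 28 to 31 members were higher in the pooled and 27 to 30 in sgTrp53+MYC tumors. The cause of these shifts was not tested.

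With the replicate number as a block the counts were 0 and 0, 3 and 2, 30 and 3, and 28 and 4 members higher and lower in the 4 comparisons (Aldafermin+MYC against FGF19+MYC, pooled against sgTrp53+MYC, pooled against livers, sgTrp53+MYC against livers). Correlations of the deviations of same-numbered samples ran from -0.33 to 0.33 over 30 pairs (median -0.02, 6 of them over 0.1). The median shows no shared deviation across the pairs. Differently numbered samples were not compared, so a pairing of single samples is not excluded. Depth was no limit for single members, with at least 73 reads in each value.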

Other observations

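A pair of rows carries names that read as the first and the second of March in French, as a spreadsheet writes them. These names do not match the rule on symbols, so the rows were not counted as synthetases. They may stand for the methionyl genes, for which the rule matched none. Which symbols they replaced was not worked out. The row named mars-01 stood at 87.8 ± 9.27 CPM in livers and 114 ± 27.0, 167 ± 14.6 and 174 ± 27.6 CPM in sgTrp53+MYC, FGF19+MYC and Aldafermin+MYC tumors (SD, n = 5), with log2 changes against livers of 0.96 ± 0.15 in the pooled and 0.38 ± 0.16 in sgTrp53+MYC tumors (SE, edgeR adjusted p = 7.04e-06 and 0.0438). The row named mars-02 stood at 3.52 ± 0.707 CPM in livers and 39.0 ± 6.69, 38.2 ± 5.06 and 39.3 ± 7.45 CPM in the same tumors, with log2 changes of 3.45 ± 0.17 and 3.46 ± 0.17 (edgeR adjusted p = 9.96e-13 and 2.74e-12). No tumor lay within the range of the livers for mars-02. Between Aldafermin+MYC and FGF19+MYC tumors neither row was called, and mars-01 was higher in the pooled than in sgTrp53+MYC tumors by 0.58 ± 0.14 (edgeR adjusted p = 0.00629).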
